A study of Mus musculus with 8 samples.

Results

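The 10 genes described here are the EGR family of zinc finger transcription factors (Egr1, Egr2, Egr3 and Egr4), the NR4A family of orphan nuclear receptors (Nr4a1, Nr4a2 and Nr4a3) and the immediate early response genes Ier2, Ier3 and Ier5. They were found by symbol among 49315 Ensembl gene IDs, and each symbol matched 1 ID. The RNA was bulk RNA of snap-frozen calvaria (the bony top of the skull) from female C57BL6 mice aged 2 to 3 days. The groups were 4 Girk3-/- samples (KO), in which Girk3 is deleted in the whole animal, and 4 WT samples; no other allele or agent is given in the labels. Girk3 is a subunit of G protein-gated potassium channels, and the study concerns bone mass after its loss. The 10 genes were chosen by family membership and by the difference in counts between KO and WT in these same libraries, so their differences between the genotypes are given below as a description, and the calls are not independent evidence.

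Immediate early genes are transcribed within minutes of a stimulus, before any new protein has to be made, and most of their transcripts are short-lived. Serum response factor, acting with its MAP kinase-regulated partners at CArG boxes, and CREB, acting at cAMP response elements, are the best known routes to them. In bone cells they respond to parathyroid hormone, prostaglandins, growth factors and mechanical load, and in any tissue they also respond to handling and dissection.

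The promoters of the NR4A genes and of Egr2 are shown. Among the 7 members with a promoter to search, they carry the densest matches to these 2 kinds of element. Sequences are RefSeq promoters of build GRCm38.p6, 250 bases before and 50 bases after an annotated start. Of the 10 members 7 had at least 1. Egr1, Egr3 and Ier2 had none in the promoter set used and were not searched, so nothing is known here of their elements. Capitals mark TGACG, a half-site of the cAMP response element, which reads CGTCA where it lies on the opposite strand; in Egr2 the capitals also mark the CArG box. The positions are chr15:101266596-101266895 (plus strand) for Nr4a1, chr2:57123954-57124253 (minus strand) for Nr4a2, chr4:48045055-48045354 (plus strand) for Nr4a3 and chr10:67537619-67537918 (plus strand) for the third listed start of Egr2.
Nr4a1: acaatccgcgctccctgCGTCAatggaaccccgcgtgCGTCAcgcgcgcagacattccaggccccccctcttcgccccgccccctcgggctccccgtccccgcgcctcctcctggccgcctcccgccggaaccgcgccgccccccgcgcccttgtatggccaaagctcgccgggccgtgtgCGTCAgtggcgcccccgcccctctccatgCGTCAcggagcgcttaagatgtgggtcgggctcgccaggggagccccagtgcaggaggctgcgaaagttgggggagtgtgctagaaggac
Nr4a2: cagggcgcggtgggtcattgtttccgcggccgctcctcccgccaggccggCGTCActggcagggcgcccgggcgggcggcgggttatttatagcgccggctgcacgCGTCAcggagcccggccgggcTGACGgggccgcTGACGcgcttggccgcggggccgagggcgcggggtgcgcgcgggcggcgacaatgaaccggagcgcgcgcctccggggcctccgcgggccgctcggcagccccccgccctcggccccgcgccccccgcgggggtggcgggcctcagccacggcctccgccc
Nr4a3: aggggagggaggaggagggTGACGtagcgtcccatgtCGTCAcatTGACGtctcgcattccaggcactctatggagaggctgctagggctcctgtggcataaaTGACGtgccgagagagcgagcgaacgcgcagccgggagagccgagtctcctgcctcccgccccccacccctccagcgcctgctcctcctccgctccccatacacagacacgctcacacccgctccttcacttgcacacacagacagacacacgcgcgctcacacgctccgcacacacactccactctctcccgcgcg
Egr2: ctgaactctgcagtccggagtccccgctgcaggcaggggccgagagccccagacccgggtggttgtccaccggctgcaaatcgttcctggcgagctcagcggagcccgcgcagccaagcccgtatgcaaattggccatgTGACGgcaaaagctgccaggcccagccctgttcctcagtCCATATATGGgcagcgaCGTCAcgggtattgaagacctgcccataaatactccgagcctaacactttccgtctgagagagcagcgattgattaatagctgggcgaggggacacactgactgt

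Each NR4A promoter held 4 TGACG half-sites on the 2 strands, whereas 20.8% of the 32851 promoters in the RefSeq table held at least 1 and 0.231% held at least 4. The windows of Nr4a1, Nr4a2 and Nr4a3 were 72.3%, 81.7% and 64.7% G and C, against a median of 52.7% over all promoters. All shares of promoters given here are over the whole set, not over promoters of like G and C content. The places of the half-sites differed. In Nr4a1 2 of the 4 lay within 70 bases of the start, at -69 and -40, in Nr4a2 all lay from -200 to -111, and in Nr4a3 from -231 to -147 (positions of the leftmost base; -1 is the base before the start). The full palindrome TGACGTCA was in none of the promoters of the 7 members searched, and 1.79% of all promoters held it.

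A CArG box was matched in 4 of the 5 listed promoters of Egr2, 3 of which share 1 and the same box, and in none of the other 6 members with a promoter; 1.63% of all promoters held one. The printed Egr2 promoter also held 2 half-sites, at -111 and -55, on either side of its CArG box at -72. Egr4 held 2 half-sites, while Ier3 and Ier5 held no half-site and no CArG box in these windows. GCGNGGGCG, the site bound by EGR proteins themselves, was matched once in Nr4a1 (at -60, opposite strand) and once in Nr4a2 (at -74), against 5.55% of all promoters. No window of the 7 members searched held TGANTCA (the AP-1 site, 7.81% of promoters), CCGGAAG (an ETS site, 8.86%) or AAAGGTCA (the NR4A monomer site, 1.51%). GGGCGG, the GC box, was in 35.7% of all promoters and in every member shown on the map except Egr4 and 2 starts of Egr2. TATAAA, in 13.6% of promoters, was matched in Nr4a2 alone, on the opposite strand. Only this exact string was searched. The windows of Egr4, Ier3 and Ier5 hold the near variant TATAAG, so a missing match does not show that a TATA motif is absent. All motifs were searched on both strands, and a match in these letters is not shown to be a bound site.

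**Figure D1:**
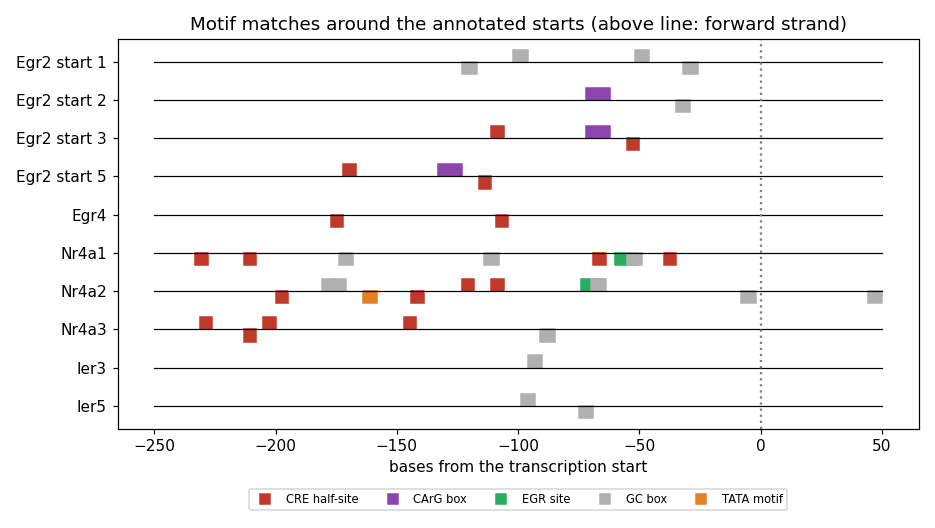
Motif matches in the 300 bases around the annotated starts of the 7 members with a RefSeq promoter (x axis: bases from the start; boxes above a line are on the forward strand, below it on the reverse strand; the fourth Egr2 start, 1 base from the third, is left out). The 4 half-sites of each NR4A gene stand at different distances from the start, and CArG boxes appear in Egr2 only.

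Among the EGR genes, Egr1 was by far the most abundant and fell in KO, whereas Egr2 and Egr3 did not pass the test and Egr4 was barely counted. Values are CPM, a gene's counts relative to its library's total after TMM scaling of that total, and coordinates are of GRCm38 (mm10). A gene is called when its adjusted p is under 0.05 in edgeR's quasi-likelihood test over all 17743 genes that passed the filter on low counts. Of the 10 members 9 passed that filter and 4 were called, all lower in KO; over all tested genes 1.32% were called, 0.874% lower and 0.445% higher, and since these calls led to the choice of genes, nothing is read from that difference. The same 4 were called lower in DESeq2, which called 3.54% of its tested genes lower, and in limma-voom, which called 0.654% lower. In bulk tissue, fewer cells of a type and less RNA per cell cannot be told apart.

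Egr1 (chromosome 18, 34859823 to 34864984, plus strand) encodes the founding EGR factor, induced by serum, parathyroid hormone and load. It was at 56.0, 51.1, 48.3 and 43.5 CPM in KO replicates 1 to 4, against 73.7, 97.6, 87.9 and 78.0 CPM in WT replicates 1 to 4. Every KO library lay below every WT library, as was the case for 5 of the 9 members and 5.96% of all tested genes; no member, and 4.63% of all tested genes, had every KO library above every WT library. The means were 49.7 ± 5.20 CPM in KO and 84.3 ± 10.7 CPM in WT (SD, n = 4 each), a log2 change of -0.76 ± 0.100 (SE).

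Egr2 (chromosome 10, 67535475 to 67542188, plus strand), needed for Schwann cell myelination and hindbrain patterning and also described in osteoclast precursors, was at 4.18, 3.73, 3.98 and 3.94 CPM in KO and 4.07, 5.82, 3.98 and 4.85 CPM in WT. The KO libraries, at 145 to 210 counts each, kept within a narrow band. WT replicates 1 and 3 lay inside this band, and WT replicates 2 and 4 lay above it. The difference in spread was not tested. The log2 change was -0.24, with a 95% interval from -0.56 to 0.08.

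Egr3 (chromosome 14, 70077203 to 70082614, plus strand), a factor of muscle spindle and lymphocyte development, was at 4.74, 3.74, 4.16 and 4.62 CPM in KO and 2.95, 2.72, 4.78 and 5.76 CPM in WT. The KO values all lay inside the range of the WT values, which split into a low and a high pair. The log2 change of 0.09 had a wide 95% interval, from -0.40 to 0.58, which holds changes of either sign. Egr4 (chromosome 6, 85511121 to 85513589, minus strand) had 0, 1, 0 and 1 counts in KO and 0, 2, 0 and 2 counts in WT, all under the floor of 3 counts, which is at most 0.0848 CPM, and no fold is given.

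Egr1 therefore made up most of the EGR reads in both genotypes, 85.6 ± 1.57% in KO and 90.5 ± 1.74% in WT (SD, n = 4 each). With counts divided by exon length the shares were 83.7 ± 1.70% in KO and 89.0 ± 1.80% in WT. The sum of the 4 EGR genes, with library totals alone, was 58.9 ± 3.85 CPM in KO and 91.3 ± 10.8 CPM in WT.

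**Figure D2:**
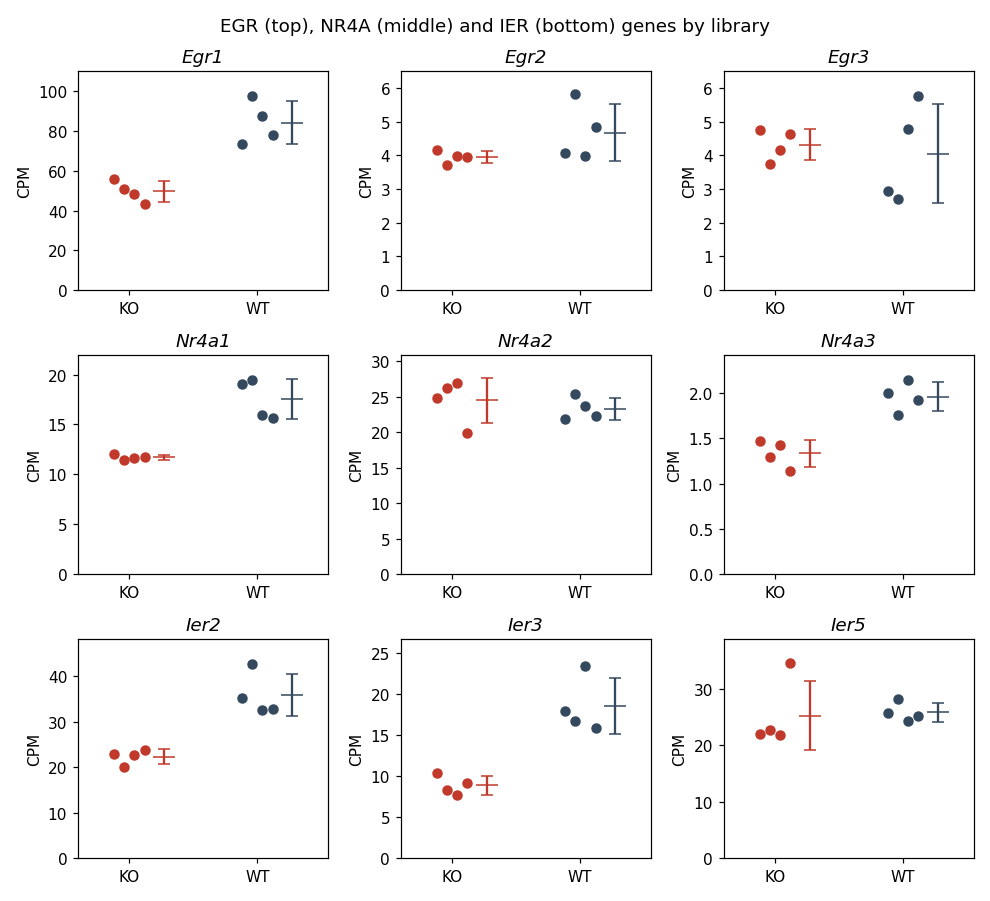
CPM (y axis, from 0) of the 9 tested members in each library, replicates 1 to 4 from left to right in KO (red) and WT (blue); the bar beside the points is the mean ± SD of 4 libraries. Egr1, Nr4a1, Nr4a3, Ier2 and Ier3 have every KO library below every WT library, and Egr2, Egr3, Nr4a2 and Ier5 overlap.

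The NR4A genes split: Nr4a1 fell in KO and Nr4a2 did not pass the test. The 2 encode closely related receptors, and their promoter windows hold the same number of half-sites. Whether the half-sites bear on either gene's level here was not tested. Nr4a1 (chromosome 15, 101254269 to 101274795, plus strand) encodes Nur77, a receptor without a known hormone ligand whose activity follows its level. It was at 12.1, 11.4, 11.6 and 11.7 CPM in KO replicates 1 to 4, against 19.1, 19.5, 16.0 and 15.7 CPM in WT replicates 1 to 4. The KO libraries were nearly equal, with a coefficient of variation of 2.33% against 11.4% in WT. The KO libraries had from 430 to 644 counts each, and the difference in spread was not tested. The log2 change was -0.58 ± 0.0918 (SE), and the call was lost without KO replicate 2, where the change was -0.56.

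Nr4a2 (chromosome 2, 57106830 to 57124003, minus strand) encodes Nurr1, known from dopamine neurons and as a parathyroid hormone-induced factor in osteoblasts. It was at 24.9, 26.3, 26.9 and 19.9 CPM in KO and 21.9, 25.3, 23.7 and 22.2 CPM in WT. KO replicate 4 was the lowest of all 8 libraries and KO replicate 3 the highest. The log2 change was 0.07, with a 95% interval from -0.14 to 0.29, and the change was -0.0386 without the muscle-poor libraries described below.

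Nr4a3 (chromosome 4, 48045153 to 48086447, plus strand) encodes NOR1, the scarcest of the 3. It was at 1.47, 1.29, 1.42 and 1.14 CPM in KO, from 42 to 73 counts a library, against 2.00, 1.76, 2.15 and 1.93 CPM in WT, from 73 to 96 counts. The groups did not overlap, yet the gene did not pass the test over all genes, with a log2 change of -0.55 ± 0.177 (SE). Its change was about as large as that of Nr4a1 and its SE was larger, at a lower count.

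Among the IER genes, Ier2 and Ier3 fell and Ier5 did not pass the test. Ier2 (chromosome 8, 84661331 to 84662852, minus strand), a nuclear protein gene with a single exon, was at 22.9, 20.05, 22.6 and 23.9 CPM in KO, against 35.2, 42.7, 32.7 and 32.9 CPM in WT. The groups were separated by a gap wider than the range within KO. The log2 change was -0.68 ± 0.0952 (SE).

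Ier3 (chromosome 17, 35821684 to 35822923, plus strand), also called IEX-1, is a survival and stress gene that NF-kappaB and p53 can induce, and it is not related by sequence to Ier2 and Ier5. It was at 10.4, 8.37, 7.68 and 9.17 CPM in KO, against 18.0, 16.8, 23.5 and 15.9 CPM in WT. The KO mean was 48.1% of the WT mean, the lowest such share among the 9 tested members, with a log2 change of -1.06 ± 0.134 (SE).

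Ier5 (chromosome 1, 155096361 to 155099636, minus strand) encodes a relative of the Ier2 protein that acts on heat shock factor and phosphatase PP2A. It was at 22.1, 22.7, 21.7 and 34.4 CPM in KO and 25.7, 28.2, 24.3 and 25.2 CPM in WT. KO replicate 4 stood above all other libraries, and the other 3 KO libraries lay below all 4 WT libraries. The log2 change was -0.04, with a 95% interval from -0.34 to 0.27, and it was -0.22 without KO replicate 4. Ier5 is 17.2 Mb from Kcnj9, the gene of Girk3, and is the member on the chromosome of the targeted gene.

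**Figure D3:**
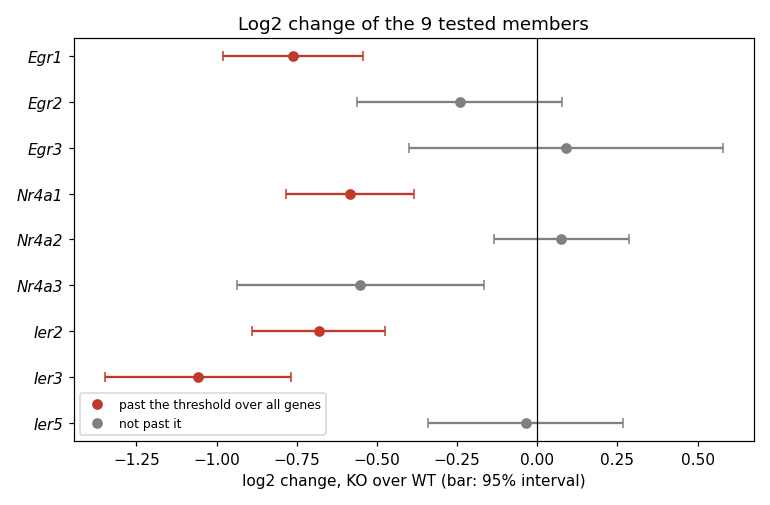
Log2 change, KO over WT, of the 9 tested members with its 95% interval (x axis), for genes past the threshold over all genes (red) and not past it (grey). Egr1, Nr4a1, Ier2 and Ier3 lie between -0.58 and -1.06, Nr4a3 at -0.55 has a wider interval, and the intervals of Egr2, Egr3, Nr4a2 and Ier5 include 0.

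No member shares exon bases with another annotated gene on either strand in GENCODE M21. Ratios of counts within a library do not depend on how libraries are scaled; they are drawn from the same counts that led to the choice of genes and are given as a description. Nr4a1 over Nr4a2 was 0.486, 0.435, 0.432 and 0.587 in KO and 0.870, 0.770, 0.675 and 0.706 in WT. Nr4a3 over Nr4a2 was 0.0547 ± 0.00444 in KO and 0.0845 ± 0.0103 in WT (SD, n = 4 each). In both ratios every KO library lay below every WT library, so Nr4a2 held a larger part of the NR4A reads in KO, 65.1 ± 3.08%, than in WT, 54.4 ± 2.49%.

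The ratio Ier2 over Ier5 was 1.04, 0.885, 1.04 and 0.694 in KO and 1.37, 1.51, 1.35 and 1.31 in WT. Ier3 over Ier5 was 0.365 ± 0.0840 in KO and 0.723 ± 0.169 in WT, also without overlap. Egr1 over Egr2 was 12.6 ± 1.22 in KO and 18.3 ± 2.68 in WT without overlap, whereas Egr1 over Egr3 overlapped, at 9.42 to 13.6 in KO and 13.6 to 35.9 in WT. Of the 6 ratios between called members 5 overlapped between the genotypes. The exception was Nr4a1 over Ier3, at 1.33 ± 0.149 in KO and 0.973 ± 0.207 in WT, where the lowest KO library (1.1625) was barely above the highest WT library (1.1619). Egr1 over Nr4a1 was 4.24 ± 0.401 in KO and 4.84 ± 0.692 in WT, and Egr1 over Ier2 was 2.24 ± 0.326 in KO and 2.36 ± 0.248 in WT. Egr1 over Fos was higher in KO and did not overlap, at 2.63 ± 0.293 in KO and 1.71 ± 0.331 in WT, so Fos reads were lower in KO by a larger factor than Egr1 reads.

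**Figure D4:**
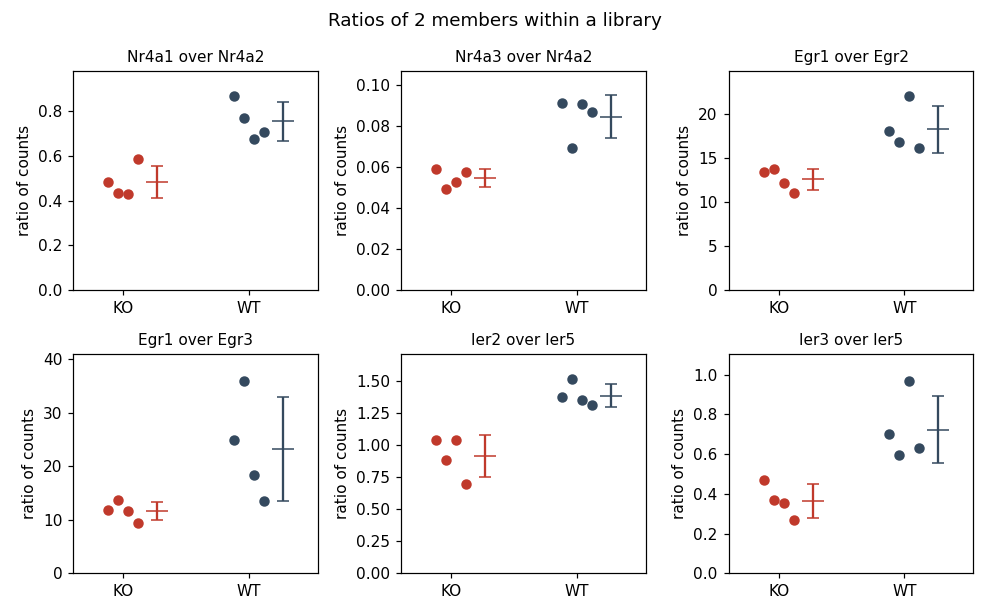
Ratios of the counts of 2 members within each library (y axis, from 0), replicates 1 to 4 from left to right in KO (red) and WT (blue), with the mean ± SD of 4 libraries. Of the 6 ratios drawn, the one of Egr1 to Egr3 overlaps between the genotypes.

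Levels were compared between genes as CPM per kilobase of annotated exon. In KO the order was Ier2 at 14.7 ± 1.08, Egr1 at 11.1 ± 1.16, Ier3 at 7.87 ± 1.03, Ier5 at 7.70 ± 1.88, Nr4a2 at 6.04 ± 0.778 and Nr4a1 at 3.34 ± 0.0777 CPM per kilobase, then Egr2, Egr3 and Nr4a3 at 1.16, 0.980 and 0.223 (SD, n = 4). In WT it was the same order, with Ier2 at 23.6 ± 3.06, Egr1 at 18.8 ± 2.39, Ier3 at 16.4 ± 3.02, Ier5 at 7.88 ± 0.516, Nr4a2 at 5.74 ± 0.383 and Nr4a1 at 5.002 ± 0.570. Ranges of neighbours in this order overlapped for Ier3 with Ier5 and Ier5 with Nr4a2 in KO, and for Ier2 with Egr1, Egr1 with Ier3, Nr4a2 with Nr4a1 and Egr2 with Egr3 in WT. Ier3 thus stood with Ier5 in KO and apart from it, among the 3 highest, in WT.

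Within a genotype the members did not move as 1 block. WT replicate 2 was highest of its group for Egr1, Egr2, Nr4a1, Nr4a2, Ier2 and Ier5 but lowest for Egr3 and Nr4a3, and WT replicate 3 was highest for Ier3 and Nr4a3. In KO, replicate 4 was lowest for Egr1, Nr4a2 and Nr4a3 and highest for Ier2 and Ier5. Over the 36 pairs of tested members, the correlation of log2 CPM after the genotype means were removed had a median of 0.04 across the 8 libraries and ran from -0.88 (Egr3 with Nr4a1) to 0.75 (Nr4a1 with Ier2), with 18 pairs above 0. These values come from 8 libraries that share depth and dissection within each, and are given as a description.

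**Figure D5:**
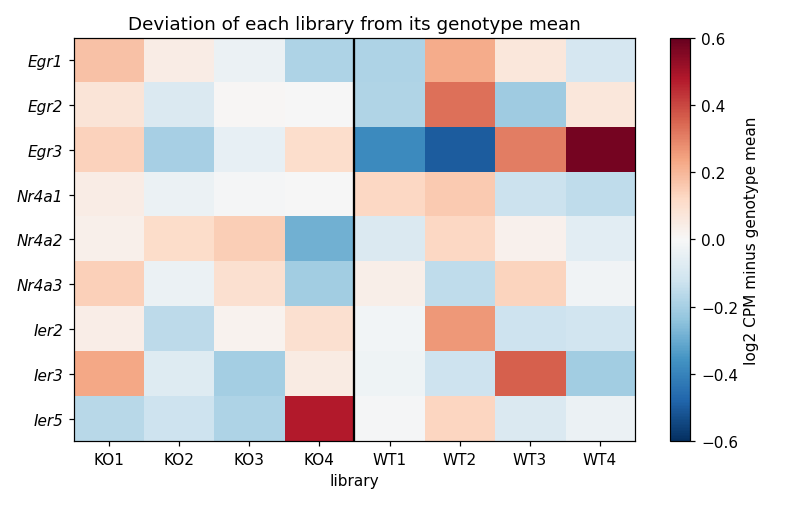
Log2 CPM of each tested member (rows) in each library (columns, KO left of the line and WT right of it) minus the mean of its genotype (colour scale). Ier5 stands out in KO replicate 4 and Egr3 in the WT libraries, and no library is high or low for every member.

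Of the genes whose profile over the 8 libraries was most like the mean standardised profile of the 9 tested members, the first 6 among 12999 genes were Ubqln1, Srxn1, Wipf1, S1pr1, Usp4 and Pcdhb17, with Pearson r from 0.975 to 0.992. The mean profile is below 0 in all 4 KO libraries and above 0 in all 4 WT libraries, through the choice of the members, so genes this like it have lower means in KO by construction; their log2 changes ran from -0.51 (S1pr1) to -0.12 (Usp4). After the genotype means were removed the first 6 were Mospd1, Bcl2l11, Lpar1, Enox1, Tnfaip8l1 and Armc10, with r from 0.917 to 0.954. These are the highest of many correlations over 8 points.

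The other immediate early genes fell in part in the same way. Of 45 such genes 15 were called lower and none higher, against 0.874% lower and 0.445% higher over all tested genes. The median log2 change was -0.33 against 0.00 over all tested genes. Of the 45 genes 39 had a change below 0, against 50.1% of all tested genes. They were listed for their role but with earlier results of these data known, so these counts are not independent evidence. The number called was 7 or 8 without KO replicate 2 or 3 or WT replicate 2 or 3. Without KO replicate 4 it was 22, of which 20 were lower and 2 higher in KO. DESeq2 called 21 lower and 1 higher, and it called 3.54% of its tested genes lower. The AP-1 genes Fos and Jun are the best known of the 45. Fos was at 18.9 ± 0.527 CPM in KO against 51.0 ± 13.8 CPM in WT (log2 change -1.43, edgeR adjusted p = 0.00358). Jun was at 34.4 ± 5.15 CPM in KO against 70.6 ± 5.34 CPM in WT (log2 change -1.04, edgeR adjusted p = 0.00064). Ccn2 and Ccn1, genes of secreted matricellular proteins, also led the list by p, with log2 changes of -0.78 and -0.82.

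Of 27 kinases and factors upstream of immediate early genes (serum response factor and its partners, CREB and its coactivators, MEF2 factors and MAP kinases), 1 fell, Map2k5, the kinase of the ERK5 pathway, at 24.8 ± 1.04 CPM in KO against 31.0 ± 0.568 CPM in WT (log2 change -0.32 ± 0.0633, edgeR adjusted p = 0.0309). That call was lost without any 1 library except KO replicate 4. Without adjustment 7 of the 27 had a p under 0.05, 5 lower and 2 higher in KO, against 17.4% of all tested genes. In 4 of the 27 every KO library lay below every WT library, against 5.96% of all tested genes. With DESeq2 2 of the list were called, both lower, against 3.54% of its tested genes called lower. The list's median log2 change was -0.04. Srf itself was at 41.0 ± 3.84 CPM in KO and 44.5 ± 4.27 CPM in WT and did not pass. Of 9 partners and relatives of the members 8 were tested and none was called in edgeR, in DESeq2 or in limma-voom, with 1 at an unadjusted p under 0.05 (17.4% of all tested genes), Nab1, at 68.8 ± 7.21 CPM in KO and 55.3 ± 11.7 CPM in WT. Nab1 and Nab2 encode the corepressors that bind EGR proteins; Nab2, itself an EGR target, was at 54.3 ± 8.82 CPM in KO and 51.1 ± 2.21 CPM in WT.

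Of 15 genes described as EGR targets 2 were called lower in edgeR, 4 in DESeq2 and 1 in limma-voom. Over all tested genes the shares called lower were 0.874%, 3.54% and 0.654%. None of the 15 was called higher. Of the 15 genes 13 had a log2 change below 0, against 50.1% of all tested genes, and the median was -0.15. Of 7 genes described as NR4A targets 5 were tested and Bglap, the osteocalcin gene, fell (log2 change -0.48 ± 0.101), a call that did not hold when KO or WT replicate 1, 2 or 3 was left out; Bglap reads can be shared with its near-identical neighbour. Spp1, which encodes osteopontin, was at 10466 ± 1722 CPM in KO and 12975 ± 1745 CPM in WT and did not pass.

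The members' transcripts differ in the feature usually linked to short life, the ATTTA pentamer of AU-rich elements, counted in the longest annotated 3′ untranslated region of each gene. Ier3 had 5 in 613 bases, 8.16 per kilobase, a density above that of 98.2% of 19841 protein-coding genes, and Nr4a1 had 3 in 543 bases, above 94.3%. Ier2 and Egr4 had none, and Egr1 had 2 in 1216 bases, 1.64 per kilobase against a median of 1.35 over all genes. Of the 4 called members a pair is dense in this pentamer, another is near the median and 1 holds none. Transcript stability was not measured, and its part in the differences was not tested. Nr4a2, Nr4a3, Egr2 and Egr3 lay between 1.62 and 2.65 per kilobase and Ier5 at 0.933.

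Library totals ran from 35392465 (KO replicate 4) to 54290034 counts. Bone genes were abundant in every library: 10 osteoblast and bone matrix genes summed to between 169710 and 217952 CPM in KO and between 191651 and 210983 CPM in WT. This sum cannot tell calvaria from other bone, so the calvarial label itself was not checked. Kcnj9 was at 2, 5, 7 and 9 counts in KO and 0, 0, 1 and 4 counts in WT, too few to check the labels. KO replicates 2 and 3 and WT replicate 3 were poor in muscle RNA: 12 skeletal muscle genes summed to 47.4 and 146 CPM in these KO libraries and to 19.0 CPM in that WT library, against 672 and 2583 CPM in the other KO libraries and 1277 to 1773 CPM in the other WT libraries. Their Egr1 values, 51.1 and 48.3 CPM in KO and 87.9 CPM in WT, lay inside the range of the other libraries of the same genotype, while Ier3 was lowest of its group in KO replicate 3 and highest in WT replicate 3. With the mean log2 CPM of these muscle genes as a covariate the same 4 members were called. Without these 3 libraries, 2 KO and 3 WT libraries remained, and none of the members was called in edgeR; the log2 changes were then -0.73 for Egr1, -0.60 for Nr4a1, -0.65 for Ier2 and -0.78 for Ier3, and 8 of all tested genes were called.

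Macrophage markers, like the called members, were lower in KO. Of 12 macrophage genes, all tested, 5 were called lower and none higher, against 0.874% lower and 0.445% higher over all tested genes. In 7 of the 12 every KO library lay below every WT library, against 5.96% of all tested genes. The sum of the 12 was 505 to 580 CPM in KO against 651 to 834 CPM in WT, without overlap. By library the sum was 505, 520, 512 and 580 CPM in KO replicates 1 to 4. In WT replicates 1 to 4 it was 651, 733, 834 and 783 CPM. None of the 12 was at 0. The 7 osteoclast genes summed to 3940 to 5993 CPM in KO and 5648 to 8377 CPM in WT, which overlapped. All 7 had a log2 change below 0, against 50.1% of all tested genes, and none was called in edgeR. DESeq2 called 5 of them lower, against 3.54% of its tested genes, and limma-voom called 0. In edgeR 7 had an unadjusted p under 0.05, against 17.4% of all tested genes. The 7 erythroid genes had a median log2 change of -0.53, against -0.52 for the macrophage genes, and none was called in edgeR. They summed to 262 to 559 CPM in KO and 462 to 837 CPM in WT, which overlapped. Endothelial genes summed to 425 to 551 CPM in KO and 468 to 559 CPM in WT. The part of these cells in the members' differences was not tested.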

How the data were processed

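Raw counts per Ensembl gene ID of 8 libraries were deposited by the authors in 1 table, with no normalization. Per the submitters' processing notes, bcl2fastq 2.17, STAR 2.5.2b and featureCounts of Subread 1.5.2 were used, with mm10 as the genome; no annotation release or strand setting is given in the sources used here. Coordinates, exon lengths and 3′ untranslated regions came from GENCODE mouse release M21 (GRCm38, the same build), and promoters from RefSeq GRCm38.p6.

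Genes were filtered with filterByExpr (minimum count 10, minimum total 15), which left 17743 genes with 99.9% of the counts, and libraries were scaled with TMM factors (0.972 to 1.04). KO was compared with WT by the two-sided quasi-likelihood test of edgeR 4.0.16 (R 4.3.3, robust) with Benjamini-Hochberg adjustment over all tested genes and a threshold of 0.05. The SE is the size of the log2 change divided by the square root of the test's F value, and 95% intervals use its degrees of freedom. For log2 CPM the prior count was 2. The procedure was tested on simulated data. DESeq2 1.42.0, limma 3.58.1 (voom), other scalings, filters, a muscle covariate, the replicate number as a block and left-out libraries were the alternatives.

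The members and the gene lists were chosen with earlier results of these data known. The text names all members, Fos, Jun, Kcnj9, up to 4 called genes of smallest p in each pathway list and the 6 genes most like the members' mean profile by each measure (mean of at least 1 CPM). Srf, Nab1, Nab2, Spp1 and Wt1 were named after their values were seen. Rhob and Ptgs2 were named because 1 library of each stood far from the others of its group. Replicates of 1 group differed by more than sampling noise. The labels give separate samples per library; p-values measure the spread between these samples, which may be technical. The floor of 3 counts covers counting error only. The called genes among the EGR targets are counted but not reported individually here. Protein sequences were not analysed here.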

Additional observations from a re-analysis of the deposited data

Results flagged for a closer look

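In 5 of 56 groups of 4 libraries looked at, over the members and the called genes of the pathway lists, 1 library stood far from the other 3; chance flags about 1 in 20 groups, or 2.8 here. Ier5 was at 34.4 CPM in KO replicate 4, against 21.7 to 22.7 CPM in the other KO libraries. Map2k5 was at 26.3 CPM in KO replicate 4, against 24.1 to 24.5 CPM. Jun was at 78.5 CPM in WT replicate 2, against 66.8 to 68.8 CPM in the other WT libraries, and Rhob at 131 CPM in the same library, against 120 to 122 CPM. Ptgs2 was at 3.95 CPM in WT replicate 4, against 5.40 to 5.61 CPM.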

How the results depend on the processing

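The 4 members called (Egr1, Nr4a1, Ier2 and Ier3) stayed called and lower in KO under every alternative except 2: without KO replicate 2, which ended the call of Nr4a1 (3 called; 3 to 4 over the left-out libraries), and without the 3 muscle-poor libraries (0 called). The log2 change of Ier5 was -0.04 and turned to 0.0213 with library totals alone, to 0.106 without the muscle-poor libraries and to 0.0211, 0.0210, 0.0271 and 0.00727 without KO replicates 1, 2 and 3 and WT replicate 2 (-0.215 to 0.0271 over the left-out libraries). That of Egr3 was -0.0381 and -0.0619 without WT replicates 1 and 2 (-0.0619 to 0.307 over the left-out libraries), and that of Nr4a2 -0.0386 without the muscle-poor libraries. None of these 3 was called in any setting. Library totals alone moved the median of all genes to 0.05 and the share of lower calls from 66.2% to 46.7%.

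Over all genes 234 were called, against 355 with no filter, 126 with the replicate block, 965 in DESeq2, 8 without the muscle-poor libraries and 57 to 608 without 1 library. Without the muscle-poor libraries 0 genes were called in every pathway list. Of the other immediate early genes 7 to 22 were called without 1 library, of the upstream genes 0 to 3, of the partners and relatives 0 to 1, of the EGR targets 1 to 3 and of the NR4A targets 0 to 1. The upstream count was 0 with library totals alone and with the replicate block, and 2 in DESeq2. The EGR target count was 4 in DESeq2 and 1 in limma-voom, and the NR4A target count was 0 with library totals alone, with the replicate block and in limma-voom. The replicate numbers were not taken to pair the samples: same-numbered libraries had residual correlations of 0.42, -0.36, 0.48 and 0.05, and KO replicate 2 correlated best with WT replicate 3. With it the same 4 members were called. The cause of these shifts was not tested. Depth limits Egr4, and Nr4a3 rests on 42 to 96 counts a library.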

Other observations

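The gene Wt1, a zinc finger relative of the EGR factors that binds a similar site, had 66 counts in KO replicate 4 and 0, 1 and 0 counts in the other KO libraries, and none in the 4 wild-type libraries. KO replicate 4 also had the most genes with a count, 28520, while the other 7 libraries had 24545 to 25729. It is the library in which Ier5 was highest and Nr4a2 lowest.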
